A study of Mus musculus with 40 samples.

Results

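The matrix metalloproteinases (MMP), the ADAMTS and ADAMTS-like (ADAMTSL) proteins and the tissue inhibitors of metalloproteinases (TIMP) were followed across the array data as 1 set, made up of every gene whose symbol starts with Mmp, Timp, Adamts or Adamtsl and a number. The rule used names only and no measured value. It found 40 of the 17097 genes on the arrays: 18 Mmp genes, 14 Adamts genes, 5 Adamtsl genes and 3 Timp genes, read by 70 probe sets, with 1 probe set standing for each gene. RefSeq lists 51 genes under these names, and the other 11, such as Timp4, Mmp15 and Mmp25, are not analysed here.

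RNA came from B16F10, a mouse melanoma line of the C57BL/6 background, either as cultures or as tumours grown under the skin of C57black6J mice that were 8 weeks old at injection. The groups were 4 cultures given OTX015 and 4 control cultures, 10 tumours of mice given OTX015 by mouth and 11 control tumours of the same experiment, and 6 tumours of mice given guadecitabine by injection into the peritoneum and 5 control tumours of that experiment. OTX015 blocks the BET proteins, readers of acetylated chromatin, and guadecitabine inhibits DNA methylation. All groups share 1 cell line in hosts with an intact immune system, so a tumour sample can hold host cells. The labels give no dose, length of treatment or sex, name no sorting step, and do not say that replicates are separate cultures or mice, so p-values measure only the spread between these samples.

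MMPs are zinc proteases that cut collagens, other matrix proteins and cell surface proteins. They are either secreted or held in the membrane. ADAMTS proteases are secreted relatives that cut proteoglycans such as versican and aggrecan, process procollagen or act on fibrillin fibres, and ADAMTSL proteins resemble them but have no protease domain. TIMPs bind the active sites of MMPs, and TIMP3, which stays in the matrix, also inhibits several ADAM and ADAMTS proteases. In melanoma these genes are known from both the tumour cells and the host cells around them.

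Values are log2 RMA values, so a difference of 1 is a doubling. A level of 4.46, the 95th percentile of the means of 81 olfactory and vomeronasal receptor probe sets, served as the background, and below it a value gives only an upper bound of the level. Above it lay 11 members in all 6 groups, 10 in some groups and 19 in none, by the deposited values. The 11 were the 3 Timp genes, the membrane proteases Mmp14 and Mmp24, Adamts1, Adamts4, Adamts9, Adamts10, Adamts12 and Adamtsl2. The gelatinase Mmp9, the stromelysin Mmp3 and the collagenase Mmp8 were among the 19. A probe set's level cannot be set against that of another, so each gene is compared only with itself. The deposited values of OTX015 tumours lay lower throughout (array means of 4.35 to 4.39, against 4.55 to 4.64 for the other 30 arrays), and their comparisons were therefore made after quantile normalization. Melanocyte genes were high in every group: all 8 markers lay above background, with array means of 10.9 to 11.7.

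Promoters are shown for the 4 genes of a chromosome 9 stretch that differed between control tumours and control cells and lay above background in those tumours, and, as examples from elsewhere in the genome, for Mmp14, Timp2 and Timp3, which changed in OTX015 cells. They were chosen with these values known, and other members with changes of like size, such as Adamtsl5 and Adamts1, are not shown. Of the 40 genes, 26 had a window in RefSeq's promoter table (GRCm38.p6, 250 bases before to 50 after a gene's start), giving 29 windows. Each line gives the 120 bases before the start, 5′ to 3′ on the gene's strand. Capitals mark TGANTCA, the site of AP-1 (dimers of Fos and Jun proteins), and TATAAA, the TATA box. Both were searched on both strands and overlap nowhere in the stretches shown. Mmp12 (macrophage elastase) is at chr9:7347254-7347373, Mmp13 (collagenase 3) at chr9:7272394-7272513, Mmp10 (stromelysin 2) at chr9:7502222-7502341 and Mmp7 (matrilysin) at chr9:7691970-7692089, all on the plus strand. Mmp12 and Mmp7 each had 2 windows. For Mmp12 the second is shown, and the first, at chr9:7344147-7344446, holds neither TGANTCA nor TATAAA. For Mmp7 the first is shown, and the second holds neither. Mmp14 (membrane type 1 MMP) is at chr14:54431478-54431597 on the plus strand, Timp2 at chr11:118355412-118355531 on the minus strand and Timp3 at chr10:86300292-86300411 on the plus strand.
Mmp12: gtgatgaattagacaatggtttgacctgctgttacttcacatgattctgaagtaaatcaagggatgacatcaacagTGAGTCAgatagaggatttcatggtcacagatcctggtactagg
Mmp13: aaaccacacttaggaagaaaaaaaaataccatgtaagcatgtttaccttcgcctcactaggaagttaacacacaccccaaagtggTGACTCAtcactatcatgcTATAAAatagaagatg
Mmp10: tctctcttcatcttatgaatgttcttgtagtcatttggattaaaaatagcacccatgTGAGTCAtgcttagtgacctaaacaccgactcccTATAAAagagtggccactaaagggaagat
Mmp7: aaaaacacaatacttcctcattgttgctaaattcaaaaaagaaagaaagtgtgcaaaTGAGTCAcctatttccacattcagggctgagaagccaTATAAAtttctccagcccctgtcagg
Mmp14: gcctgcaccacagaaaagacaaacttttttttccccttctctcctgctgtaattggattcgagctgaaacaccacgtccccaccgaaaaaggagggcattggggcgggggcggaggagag
Timp2: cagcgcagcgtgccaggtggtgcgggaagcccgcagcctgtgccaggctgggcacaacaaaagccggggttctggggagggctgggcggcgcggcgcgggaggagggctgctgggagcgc
Timp3: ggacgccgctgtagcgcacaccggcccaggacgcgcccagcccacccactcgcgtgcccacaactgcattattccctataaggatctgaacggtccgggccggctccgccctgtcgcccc

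The first 4 genes lie together on mouse chromosome 9, in a stretch of 10 protein-coding genes that are all MMP genes, of which 9 were measured: Mmp13, Mmp12, Mmp1b, Mmp3, Mmp1a, Mmp10, Mmp8, Mmp20 and Mmp7. A window of 8 of these 9 genes holds TGANTCA, Mmp8 being without it. Counted by window this is 8 of 11, against 0 of the 18 windows of other members and 7.81% of all 32851 windows. TATAAA is in a window of all 9 genes, or 9 of the 11 windows, in 2 of the 18 other member windows and in 13.6% of all windows. In the second window of Mmp12 it lies just after the start and so outside the stretch shown. CG dinucleotides, the sites of DNA methylation, numbered 0 to 7 in the 11 windows of this stretch (median 1), against 7 to 46 in the 18 other windows (median 23.5) and a median of 7 over all windows. CACGTG, the E-box bound by MITF and MYC among others, was in 1 member window, the second of Mmp7, and in 7.15% of all windows. A match to letters is a description of the sequence and not a binding site.

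In cultured cells OTX015 changed inhibitors, membrane proteases and ADAMTS proteases in both directions. Mmp14, Timp3 and Adamts20 fell more than 2-fold as measured, while Mmp16, Adamts1 and Timp2 rose 1.60- to 1.84-fold. Of the 40 members 14 changed (35.0%), 7 higher and 7 lower, against 38.8% of all 17097 genes, so the share was near the background (limma with Benjamini-Hochberg adjustment over all genes, called at an adjusted p under 0.05). Higher calls made up 17.0% and lower calls 21.8% of all genes. The median change was -0.01 over members and -0.00 over all genes. Of the 14, Adamts5, the aggrecanase 2 gene, stayed below background in both groups (log2 change 0.19). The 9 measured genes of the chromosome 9 stretch had 0 calls here, with changes of -0.05 to 0.11, so all 14 changes lay among the other 31 members. In the plot of changes, the cells' panel shows filled points on both sides of 0.

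**Figure D1:**
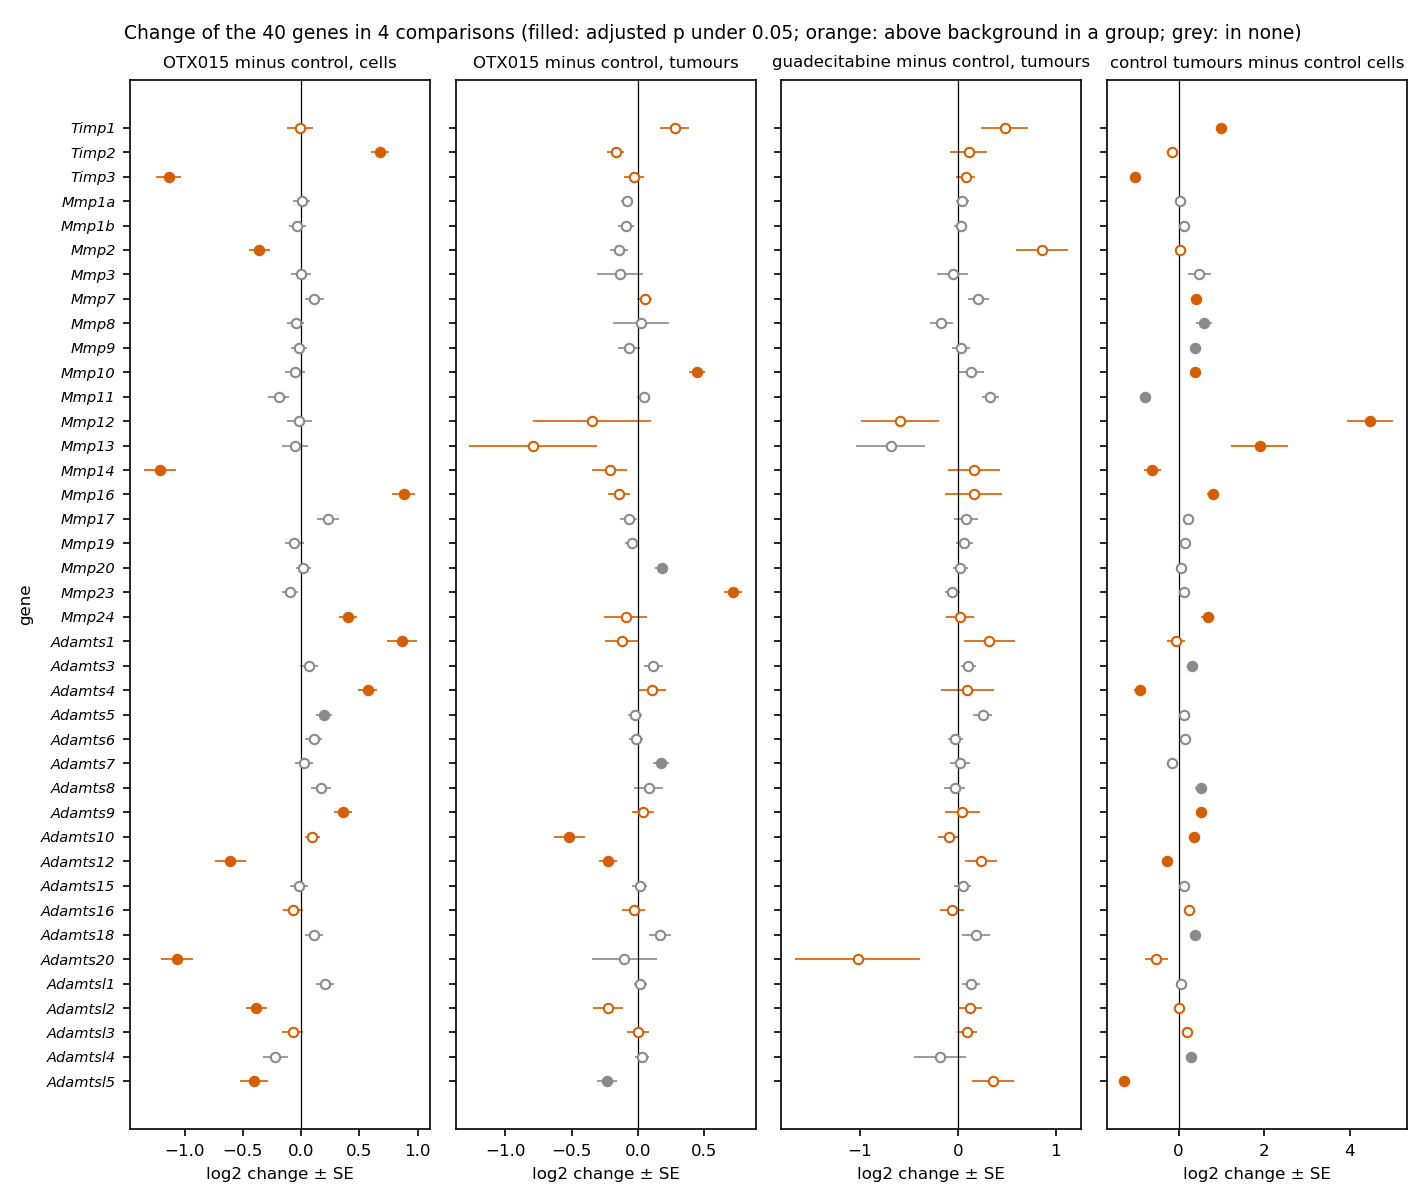
Log2 change ± SE (x axis) of each of the 40 genes (y axis) in 4 comparisons, with OTX015 tumours after quantile normalization. Filled points passed an adjusted p under 0.05; orange genes lay above background in a group of the comparison and grey ones in none. Filled points number 14 in cells, 7 in OTX015 tumours, 0 in guadecitabine tumours and 21 between control tumours and control cells.

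Among the inhibitors, Timp3 had levels of 4.83, 4.80, 4.90 and 4.98 in OTX015 cells, against 6.04, 6.28, 5.70 and 6.05 in control cells. Every treated culture lay below every control. The fall was 2.20-fold (log2 change -1.14 ± 0.11 SE, limma adjusted p = 3.35e-06), and the 3 other probe sets of Timp3 also fell, by 0.46 to 0.85. Timp2, which inhibits MMPs and also links MMP14 to pro-MMP2 at the cell surface, went the other way: it had 9.89, 9.85, 9.99 and 9.95 in OTX015 cells, against 9.10, 9.25, 9.25 and 9.38 in control cells. All 4 treated cultures lay above all 4 controls, a rise of 1.60-fold (log2 change 0.68 ± 0.08 SE, limma adjusted p = 1.33e-05). Timp2's other 4 probe sets had changes of 0.14 to 0.58, of which 3 passed. Timp1 had 5.09, 4.55, 5.02 and 4.91 in OTX015 cells and 5.04, 4.92, 4.86 and 4.80 in control cells, which overlap (adjusted p = 0.966).

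Among the membrane-bound MMPs, Mmp14, which cuts fibrillar collagen and activates pro-MMP2, had 7.78, 7.24, 7.46 and 7.67 in OTX015 cells, against 8.81, 9.02, 8.40 and 8.76 in control cells. The groups did not overlap and the fall was 2.31-fold (log2 change -1.21 ± 0.14 SE, limma adjusted p = 1.8e-05). Its second probe set fell by 1.40. Mmp16 (membrane type 3) had 5.27, 4.88, 5.30 and 5.06 in OTX015 cells, against 4.40, 4.19, 4.15 and 4.24 in control cells. The 4 controls were all below background, so the rise was at least 1.58-fold (measured log2 change 0.88 ± 0.10 SE, limma adjusted p = 1.58e-05). One of its 2 other probe sets also rose (0.44), and the dimmer had 0.11. Mmp24 (membrane type 5) had 5.85, 5.91, 6.04 and 5.81 in OTX015 cells, against 5.44, 5.58, 5.46 and 5.53 in control cells, with no overlap. Its rise of 0.40 ± 0.07 SE was 1.32-fold (limma adjusted p = 0.000719), while its 2 other probe sets had -0.05 and 0.10. The secreted gelatinase Mmp2 had 4.13, 4.17, 4.05 and 4.16 in OTX015 cells, all below background, against 4.29, 4.52, 4.73 and 4.41 in control cells. Its fall of 0.36 (limma adjusted p = 0.00707) thus lay at the edge of what the array reads, and was lost when arrays were centred on their medians (adjusted p = 0.0509).

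Among the ADAMTS proteases, Adamts1, which cuts versican and aggrecan, had 8.58, 9.06, 8.97 and 8.98 in OTX015 cells, against 8.10, 8.24, 7.69 and 8.11 in control cells. All treated cultures were above all controls, by 1.82-fold (log2 change 0.86 ± 0.13 SE, limma adjusted p = 0.000152). Adamts4 (aggrecanase 1) had 7.34, 7.26, 7.53 and 7.49 in OTX015 cells, against 6.79, 6.90, 6.70 and 6.94 in control cells, again without overlap. It rose by 0.57 ± 0.08 SE (limma adjusted p = 0.000134), and its second probe set by 1.28. Adamts9, a versican-cutting protease, rose by 0.36 ± 0.08 SE (limma adjusted p = 0.00322), with 5.76 to 5.94 in OTX015 cells against 5.32 to 5.63 in control cells. Its 2 other probe sets had 0.01 and -0.03, and averaged with them the call was lost (0.11, adjusted p = 0.201).

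Adamts20, the gene mutated in belted mice, whose coat lacks pigment cells in a band of the trunk, had 4.05, 4.01, 3.79 and 3.88 in OTX015 cells, all below background, against 5.22, 5.28, 4.58 and 4.92 in control cells. The fall was at least 1.45-fold (measured log2 change -1.07 ± 0.14 SE, limma adjusted p = 4.3e-05). Adamts12 had 4.90, 5.05, 4.85 and 5.26 in OTX015 cells, against 5.61, 5.80, 5.23 and 5.85 in control cells, with an overlap of 1 culture on each side (log2 change -0.61 ± 0.13 SE, limma adjusted p = 0.00287). ADAMTSL genes fell as well. Adamtsl2, which binds proteins of fibrillin fibres, had 5.11 to 5.50 in OTX015 cells and 5.66 to 5.83 in control cells (log2 change -0.39 ± 0.09 SE, limma adjusted p = 0.00396). Adamtsl5 had 4.83 to 5.35 in OTX015 cells and 5.24 to 5.66 in control cells (log2 change -0.40 ± 0.12 SE, limma adjusted p = 0.0191). The call of Adamtsl5 was lost when control replicate 1 or 2 or OTX015 replicate 3 or 4 was left out, with adjusted p of 0.0506 to 0.0644. Median centring (limma adjusted p = 0.0577) and quantile normalization (limma adjusted p = 0.0533) also ended it.

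In all, 12 of the 40 members had no overlap between the 4 OTX015 cultures and the 4 control cultures, 7 higher and 5 lower, against 37.8% of all genes. Array means of the host cell marker lists lay below background in the cultures, except for pericytes in OTX015 cells. Those of the 10 macrophage markers were 3.77 to 3.90 in OTX015 cells and 3.71 to 3.89 in control cells, and those of the 8 fibroblast markers 3.24 to 3.42 and 3.33 to 3.44. Those of the 4 measured pericyte markers were 4.99 to 5.24 and 4.22 to 4.34, with 2 of the 4 above background in both groups. Fitted together with the tumour arrays, which vary more, 7 of the 14 calls remained: Mmp14, Mmp16, Timp2, Timp3, Adamts1, Adamts12 and Adamtsl2. Centring each array on its median moved the split of 7 higher and 7 lower to 14 higher and 5 lower, since it raised the median of all genes to 0.12.

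Genes that act on these proteases or with them were counted from lists chosen for their known roles. Of 15 measured regulators 1 rose and 3 fell in OTX015 cells. Plat (tissue plasminogen activator) rose by 3.33, Pcolce (an enhancer of procollagen processing) fell by 2.17, Lrp1 (a receptor that clears proteases from the cell surface) fell by 1.30 and Plaur (the urokinase receptor) fell by 0.50. Of 12 genes of the membrane-anchored ADAM family 4 rose and 3 fell. Adam10 (log2 change 1.08) and Adam9 (0.88), which shed surface proteins, were higher, and Adam19 (-1.68) and Adam23 (-1.50) lower. Of 13 transcription factors known to bind MMP promoters 5 rose and 2 fell, among them Jun (1.88), Jund (1.51), Etv5 (1.32) and Junb (0.91) higher. Of 17 matrix substrates Fn1 (fibronectin) rose by 1.58 and 4 fell, among them Nid1 (nidogen 1), which fell by 1.91. All of these passed limma's adjusted p over all genes. Of the called genes, 1 of the 4 substrates that fell and 4 of the 5 transcription factors that rose lay above background in a group. All other called genes of these lists did. The shares called were 26.7% of the regulators, 58.3% of the ADAM genes, 53.8% of the transcription factors and 29.4% of the substrates, against 38.8% of all genes.

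**Figure D2:**
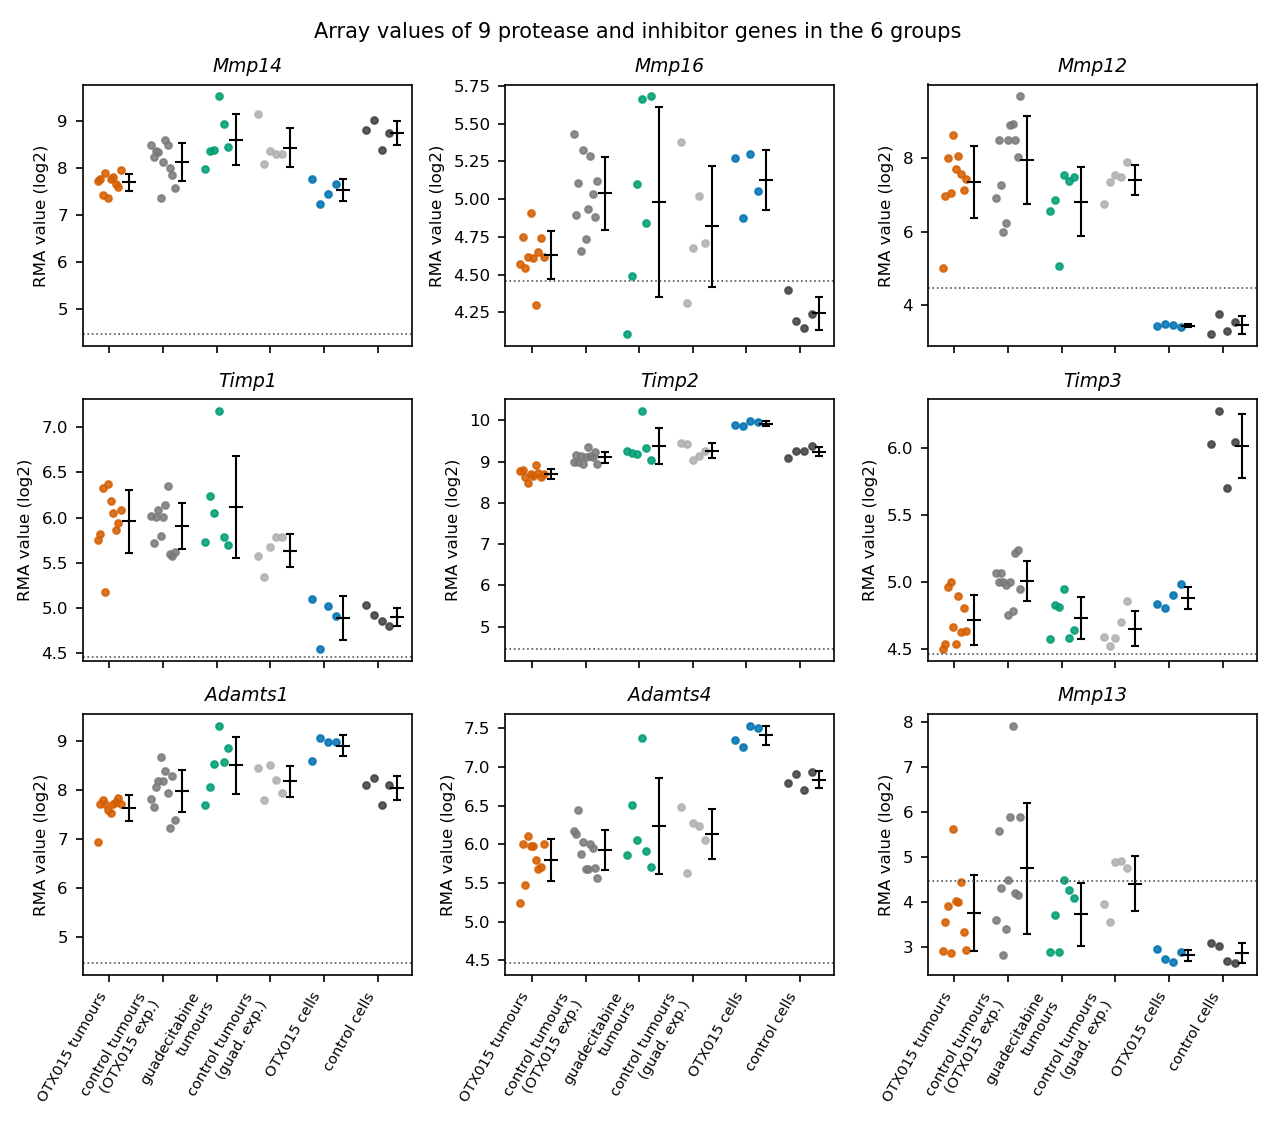
Deposited RMA values (y axis, log2) of 9 genes on each array (points) in the 6 groups (x axis), with the group mean ± SD beside them; the dotted line is the background. Mmp14 and Timp3 are lower and Timp2, Mmp16, Adamts1 and Adamts4 higher in OTX015 cells than in control cells, and Mmp12 is near 3.5 in both culture groups but at 5 or higher in every tumour.

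Untreated tumours differed from untreated cultures in more members than any drug changed, and the same held over all genes. The share of members called was near that of all genes, and the comparisons differ in their numbers of arrays. Mmp12, a secreted protease of the chromosome 9 stretch, was at least 11.1-fold higher in tumours, Timp1 was about 2-fold higher, and Mmp13, Mmp16 and Mmp24 were also higher, while Timp3, Adamtsl5, Adamts4 and Mmp14 were lower. Of the 40 members 21 differed between the 11 control tumours of the OTX015 experiment and the 4 control cultures (52.5%), 15 higher and 6 lower, against 49.7% of all genes (limma with Benjamini-Hochberg adjustment). Higher calls made up 20.5% and lower calls 29.3% of all genes, or 3499 and 5005 genes, and 3705 and 3489 genes after quantile normalization. The median difference was 0.15 over members and 0.01 over all genes. Of the 9 measured genes of the chromosome 9 stretch 5 were higher in tumours and 0 lower, and of the other 31 members 10 were higher and 6 lower. Against the 5 control tumours of the guadecitabine experiment 18 members differed, 12 higher and 6 lower, with 38.1% of all genes called (9.91% higher and 28.2% lower). In bulk samples, more cells of a type and more RNA per cell cannot be told apart.

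Mmp12, the elastase made mainly by macrophages, had 5.98 as its lowest, 8.48 as its median and 9.66 as its highest level in control tumours, against 3.22 to 3.77 in control cells. Every tumour was above every culture, and since all cultures were below background the difference was at least 11.1-fold (measured log2 change 4.47 ± 0.54 SE, limma adjusted p = 7.19e-06). The 5 control tumours of the guadecitabine experiment gave 3.94 against the same cultures. Mmp13, a collagenase of fibrillar collagen, had 2.80, 4.31 and 7.92 as its lowest, median and highest level in control tumours, against 2.63 to 3.08 in control cells. The tumours spread over the whole range and the lowest lay among the cultures, which were all below background, so the difference was at least 1.22-fold (measured log2 change 1.89 ± 0.66 SE, limma adjusted p = 0.0264). Leaving out any 1 of the 4 control cultures ended this call, with adjusted p of 0.0512 to 0.0662. Smaller differences were seen for Mmp7 (log2 change 0.41 ± 0.07 SE, limma adjusted p = 0.000337) and Mmp10 (0.38 ± 0.09 SE, limma adjusted p = 0.00368), both below background in the cultures and so at least 1.08- and 1.03-fold higher. Against the controls of the guadecitabine experiment neither passed, with Mmp7 at 0.02 and Mmp10 at 0.12.

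Host cell markers were higher in the same tumours for some lists and less so for others. Higher calls were 5 of 6 T cell and 4 of 4 mast cell markers, with 1 of each list above background in a group. They were 2 of 7 endothelial, 2 of 5 keratinocyte and 0 of 2 adipocyte markers. Of 4 pericyte markers 2 were higher and 1 lower, and of 5 muscle markers 2 were higher and 1 lower. All 10 macrophage markers were higher, with a median log2 change of 3.43, and their array means were 5.98 to 7.59 in control tumours, against 3.71 to 3.89 in control cells. Of 6 neutrophil markers 5 were higher, with array means of 4.16 to 5.61 in control tumours and 3.63 to 3.75 in control cells. Of 8 fibroblast markers 4 were higher and 2 lower, with array means of 3.59 to 4.20 in control tumours and 3.33 to 3.44 in control cells, and Col1a1, Col1a2, Pdgfra, Thy1 and Fap remained at or below background in the tumours. Across the 11 control tumours Mmp12 and the macrophage mean had r = 0.77 (Spearman's rho 0.72), permutation p = 0.0071 and 0.016, or 0.064 and 0.15 adjusted over 18 relations, and r = 0.65 without the 2 tumours farthest from the median. In the same tumours Mmp12 and the neutrophil mean had r = 0.80 (rho 0.77), permutation p = 0.0042 and 0.0076, or 0.064 and 0.14 adjusted, and r = 0.73 without the 2 farthest. With the fibroblast mean r was 0.66 (rho 0.55), permutation p = 0.028 and 0.086, or 0.13 and 0.26 adjusted, and 0.41 without the 2 farthest. Across the 10 OTX015 tumours r with the macrophage mean was 0.77 (rho 0.54), permutation p = 0.027 and 0.11, or 0.13 and 0.28 adjusted, and -0.15 without the 2 farthest, so there it rests on those. None of the 18 relations of Mmp12, Mmp13 and Timp1 with macrophage, neutrophil and fibroblast markers passed the adjustment. The part of host cells in the differences was not tested.

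Timp1, an inhibitor with little effect on membrane-type MMPs, had a lowest, median and highest level of 5.58, 6.01 and 6.35 in control tumours, against 4.80 to 5.04 in control cells. No tumour overlapped the cultures, and the difference was 2-fold (log2 change 0.999 ± 0.13 SE, limma adjusted p = 1.15e-05). Timp3 had 4.75, 5.00 and 5.24 in control tumours, against 5.70 to 6.28 in control cells, and was lower by 2.02-fold without overlap (log2 change -1.01 ± 0.10 SE, limma adjusted p = 9.23e-07). OTX015 cells had 4.80 to 4.98 for the same gene, within the range of the untreated tumours. Timp2 had 8.94, 9.11 and 9.35 in control tumours, against 9.09 to 9.38 in control cells, and did not pass (log2 change -0.14 ± 0.08 SE, adjusted p = 0.141), though the average of its probe sets did (-0.27, adjusted p = 0.0452).

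Membrane-bound MMPs differed in both directions. Mmp14 had 7.36, 8.23 and 8.60 in control tumours, against 8.40 to 9.02 in control cells, with 11 of 11 tumours below the cultures' mean (log2 change -0.61 ± 0.20 SE, limma adjusted p = 0.0171). This call was lost after quantile normalization (-0.35, adjusted p = 0.124), against the controls of the guadecitabine experiment (-0.31, adjusted p = 0.267) and without control cells replicate 2 (adjusted p = 0.0730). Mmp16 was higher, with 4.66, 5.03 and 5.43 in control tumours against 4.15 to 4.40 in control cells, a difference of at least 1.49-fold (measured log2 change 0.79 ± 0.12 SE, limma adjusted p = 8.08e-05). Mmp24 was higher too, with 5.73, 6.17 and 6.85 in control tumours against 5.44 to 5.58 in control cells (log2 change 0.68 ± 0.15 SE, limma adjusted p = 0.00178).

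Adamts4 had 5.57, 5.96 and 6.44 in control tumours, against 6.70 to 6.94 in control cells. It was lower in 11 of 11 tumours, by 1.87-fold (log2 change -0.91 ± 0.13 SE, limma adjusted p = 3.83e-05). Adamtsl5, known in human skin as a melanocyte autoantigen of psoriasis, was below background in the tumours, with 4.03, 4.19 and 4.29 in control tumours against 5.24 to 5.66 in control cells, a difference of at least 1.99-fold (measured log2 change -1.28 ± 0.08 SE, limma adjusted p = 4.46e-09). Adamts9 was higher (0.53 ± 0.09 SE, limma adjusted p = 0.000313), and so was Adamts10, which acts on fibrillin fibres (0.37 ± 0.11 SE, limma adjusted p = 0.00966). The call of Adamts10 was lost when its probe sets were averaged (0.14, adjusted p = 0.133), its second probe set having -0.09, and with the replicate number as a block (0.24, adjusted p = 0.0813). Adamts12 was lower by 0.27 (limma adjusted p = 0.0377), but stood at 0.00 after quantile normalization, and 9 of the 15 fits without 1 array lost the call (without control cells replicate 1, 2 or 4 or control tumour replicate 1, 4, 6, 7, 8 or 10, adjusted p of 0.0504 to 0.163). The other calls, Adamts3, Adamts8, Adamts18, Adamtsl4, Mmp8, Mmp9 and Mmp11, were of genes below background in both groups. In all, 16 members had no overlap between tumours and cultures, 12 higher and 4 lower, against 30.3% of all genes.

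From the lists, 9 of 13 transcription factors were higher and 1 lower in control tumours than in control cells. Fos differed by 5.22, Etv5 by 4.30, Junb by 2.32 and Etv1 by 1.65. Of 12 ADAM genes 6 were higher and 2 lower, led by Adam12 (3.13) and Adam8 (2.71) higher and Adam19 (-1.34) and Adam10 (-0.68) lower. Of 15 regulators 6 were higher and 2 lower, among them Thbs2 (0.46) higher and Plat (-0.75) lower. Reck, a membrane-anchored inhibitor of MMPs, was lower by 1.21. Of 17 substrates 6 were higher and 4 lower, among them Bgn (biglycan, 1.19) higher and Col5a1 (-1.22) lower. The shares called were 76.9% of the transcription factors, 66.7% of the ADAM genes, 53.3% of the regulators and 58.8% of the substrates, against 49.7% of all genes. Of the genes called higher, 8 of the 9 transcription factors and 4 of the 6 ADAM genes lay above background in a group. So did 2 of the 6 regulators and 4 of the 6 substrates. Of the 4 substrates called lower 2 did, and all other genes called lower did.

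After quantile normalization OTX015 changed few members in tumours, and not those it changed most in cells. Mmp23 and Mmp10 rose and Adamts10 fell, while no Timp gene passed the test after quantile normalization; Adamts12 and Adamtsl5 fell as they had in cells. Of the 40 members 7 changed (17.5%), 4 higher and 3 lower, against 16.2% of all genes, so the share was again near the background (limma after quantile normalization, Benjamini-Hochberg adjustment). Higher calls made up 8.67% and lower calls 7.49% of all genes. The median change was -0.03 over members and 0.01 over all genes. Of the 7, Adamts7 (0.18), Mmp20 (0.18) and Adamtsl5 (-0.23), were below background in both groups. On the deposited values, where the median of all genes was -0.21, 27 members were called, 2 higher and 25 lower, against 55.2% of all genes (1.26% higher and 54.0% lower). Mmp14 did not pass after quantile normalization, with 7.33 to 8.29 in OTX015 tumours against 7.09 to 8.40 in control tumours. Its deposited means were 7.70 and 8.14. The 10 treated tumours and 11 control tumours overlapped for every member except Mmp23. Non-overlap held for 1.37% of all genes.

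Mmp23, a membrane-anchored protease without the hemopexin domain of most MMPs, had a lowest, median and highest level of 4.32, 4.53 and 4.93 in OTX015 tumours, against 3.73, 3.82 and 4.14 in control tumours. All 10 treated tumours lay above all 11 controls, but all controls and 2 of the treated tumours were below background (measured log2 change 0.72 ± 0.07 SE, limma adjusted p = 2.15e-07). The background was set on the deposited values. There the change was 0.47 and the mean of Mmp23 was below background in every group, so no lower bound of the rise can be given. Its second probe set, which was dimmer, had a change of 0.05 (adjusted p = 0.467), and the average of both 0.39. Mmp10 had 4.65, 4.83 and 5.00 in OTX015 tumours, against 4.19, 4.35 and 4.69 in control tumours, with every treated tumour above the controls' mean (log2 change 0.45 ± 0.06 SE, limma adjusted p = 2.52e-05). The controls' mean of 4.38 was itself below background, and on the deposited values the change was 0.18 (limma adjusted p = 0.0179).

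Adamts10 had 5.03, 5.34 and 5.66 in OTX015 tumours, against 5.43, 5.71 and 6.45 in control tumours. The groups overlapped, with 10 of 10 treated tumours below the controls' mean (log2 change -0.52 ± 0.12 SE, limma adjusted p = 0.00391). Averaged with its second, dim probe set, which had 0.09, the change was -0.21 (limma adjusted p = 0.0199). Adamts12 had 4.93, 5.00 and 5.15 in OTX015 tumours, against 5.01, 5.18 and 5.65 in control tumours (log2 change -0.22 ± 0.07 SE, limma adjusted p = 0.0278). Averaging its probe sets ended that call (adjusted p = 0.0643), as did a fit of all 6 groups (adjusted p = 0.0512).

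Timp1 had 5.44, 6.08 and 6.55 in OTX015 tumours, against 5.50, 5.75 and 6.10 in control tumours, with 8 of 10 treated tumours above the controls' mean (log2 change 0.28 ± 0.11 SE, adjusted p = 0.0838). Without OTX015 replicate 4, an array of low spread, it passed (0.35, adjusted p = 0.0136). Timp2 had 8.71, 8.79 and 8.99 in OTX015 tumours, against 8.70, 9.04 and 9.24 in control tumours (log2 change -0.17 ± 0.07 SE, adjusted p = 0.0912), and passed without control replicate 1 (adjusted p = 0.0448) or 5 (adjusted p = 0.0403). On the deposited values, where most genes lay lower in OTX015 tumours, Timp2 (-0.40, adjusted p = 9.43e-06) and Timp3 (-0.29, adjusted p = 0.0025) were called lower. Timp3 had 4.66, 4.78 and 5.23 in OTX015 tumours, against 4.65, 4.90 and 5.19 in control tumours (log2 change -0.03 ± 0.08 SE, adjusted p = 0.863). Mmp12 had 5.20, 7.63 and 8.63 in OTX015 tumours, against 5.94, 8.29 and 9.80 in control tumours, and did not pass (log2 change -0.35 ± 0.45 SE, adjusted p = 0.665). Macrophage markers moved in the same samples: 7 of 10 fell, with a median change of -1.12, and their array means were 4.51 to 6.33 in OTX015 tumours and 5.73 to 7.82 in control tumours. Mmp13 had 2.88, 3.86 and 5.66 in OTX015 tumours and 2.70, 4.22 and 7.67 in control tumours (log2 change -0.79 ± 0.48 SE, adjusted p = 0.295).

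Of the lists of related genes in OTX015 tumours, the regulators had 4 of 15 called (26.7%), the ADAM genes 2 of 12 (16.7%), the transcription factors 1 of 13 (7.69%) and the substrates 1 of 17 (5.88%), against 16.2% of all genes. Of the regulators A2m (alpha-2-macroglobulin, which traps proteases) rose by 0.17 and 3 fell, Plaur by 0.46, Plau by 0.15 and Pcolce2 by 0.11. Only 1 of these 4 calls, a fall, was of a gene above background in a group. Of the ADAM genes Adam23 rose by 0.39 and Adam28 by 0.37, and 1 of these 2 lay above background in a group. Of the transcription factors Etv1 rose by 0.47, and of the substrates Eln (elastin) rose by 0.41. Of 8 fibroblast markers Lum (lumican) rose by 1.17 and the others did not pass.

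Whether the OTX015 effect differed between tumours and cells was tested as a difference of the effects over these 29 arrays. Tumours can hold host cells and were treated through the mouse, with no dose or length given. A different response of the melanoma cells therefore cannot be told apart from a different cell mixture or exposure. For 9 of the 40 members the effects differed (22.5%), against 32.7% of all genes (limma after quantile normalization), of which 18.0% were above and 14.6% below. The effect in tumours was above that in cells for Mmp14, by 1.07 ± 0.24 SE (limma adjusted p = 0.000678), for Timp3, by 0.89 ± 0.15 SE (limma adjusted p = 1.83e-05), for Mmp23, by 0.85 ± 0.12 SE (limma adjusted p = 3.11e-06), and for Mmp10, by 0.52 ± 0.12 SE (limma adjusted p = 0.000916). It was below that in cells for Adamts1, with a difference of -1.08 ± 0.23 SE (limma adjusted p = 0.000382), for Mmp16, with -0.94 ± 0.16 SE (limma adjusted p = 1.78e-05), and for Timp2, with -0.89 ± 0.12 SE (limma adjusted p = 4.41e-07). Adamts10 had -0.69 ± 0.21 SE (limma adjusted p = 0.00974), and Adamts4 -0.51 ± 0.19 SE (limma adjusted p = 0.035).

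By their own comparisons, Mmp14, Timp3, Adamts1, Adamts4, Mmp16 and Timp2 had changed in cells and did not pass in tumours, and Mmp23, Mmp10 and Adamts10 had changed in tumours and did not pass in cells. Timp1 gave 0.24 ± 0.20 SE, which did not pass (adjusted p = 0.393). Centring on the median gave 4 higher and 10 lower calls and the deposited values 3 higher and 13 lower, in place of 4 higher and 5 lower. The call of Mmp10 was lost on the deposited values (0.24, adjusted p = 0.0974). That of Adamts10 was lost when its probe sets were averaged (-0.20, adjusted p = 0.155), its second probe set having 0.28. The call of Adamts4 was lost in the fit of all 6 groups (adjusted p = 0.135), without control cells replicate 1, 2 or 3 or without OTX015 cells replicate 3 or 4 (adjusted p of 0.0521 to 0.0749).

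**Figure D3:**
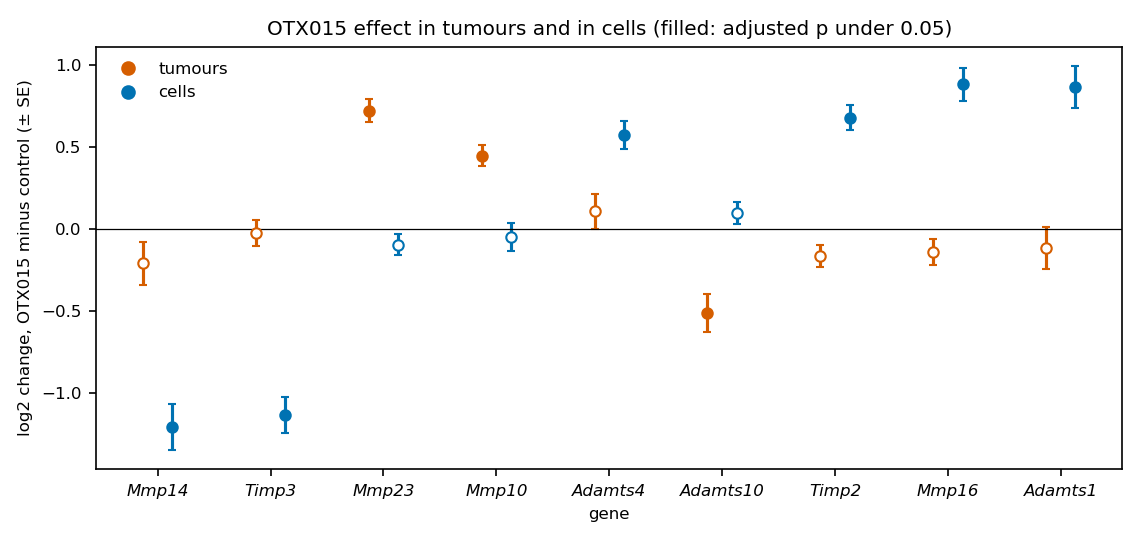
Log2 change with OTX015 ± SE (y axis) in tumours (orange) and in cells (blue) for the 9 genes whose effects differed (x axis), each from its own comparison; filled points passed an adjusted p under 0.05. Mmp14 and Timp3 are below -1 in cells and nearer 0 in tumours, Mmp16, Adamts1, Timp2 and Adamts4 are above 0 in cells, and Mmp23 and Mmp10 are above 0 in tumours.

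With guadecitabine no member passed the test: 0 of 40 were called, and 0 of all 17097 genes (0.0%, limma with Benjamini-Hochberg adjustment). On simulated data this comparison recovered 52.2% of 1.5-fold and 74.6% of 2-fold changes. For OTX015 in tumours these shares were 94% and 98.5%, so changes of this size can be missed here. The simulation drew noise independently for each gene and array, with 1 spread per gene for both groups. It changed genes picked at random from all genes, dim ones included. The shares need not hold for these members. At an unadjusted p under 0.05 there were 3 members, all higher, and 5.93% of all genes. The smallest p belonged to Mmp11 (stromelysin 3), with 3.25, 3.41, 3.29, 3.54, 3.40 and 3.18 in guadecitabine tumours, against 2.95, 2.86, 3.14, 3.16 and 2.96 in their control tumours. All of these are below background, although all 6 treated tumours lay above all 5 controls (log2 change 0.33 ± 0.09 SE, adjusted p = 0.599).

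Mmp2 had 4.44, 4.52, 5.39, 5.46, 4.37 and 5.87 in guadecitabine tumours, against 4.28, 3.87, 4.25, 4.18 and 4.19 in their control tumours. All 6 treated tumours were above all 5 controls, which were themselves below background, and 3 treated tumours stood near 5.4 or higher (log2 change 0.86 ± 0.27 SE, adjusted p = 0.707). Non-overlap of the groups held for these 2 members and for 0.649% of all genes. In a fit of all 6 groups, which share 1 estimate of the spread, both passed, Mmp2 with limma adjusted p = 0.00439 and Mmp11 with limma adjusted p = 0.0348. Adamts5 had 0.26 ± 0.10 SE (adjusted p = 0.780).

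The inhibitors did not pass. Timp1 had 5.73, 6.24, 6.05, 7.18, 5.78 and 5.70 in guadecitabine tumours and 5.57, 5.35, 5.68, 5.79 and 5.78 in their control tumours (log2 change 0.48 ± 0.24 SE, adjusted p = 0.828). Timp2 changed by 0.11 ± 0.19 SE (adjusted p = 0.920) and Timp3 by 0.08 ± 0.09 SE (adjusted p = 0.895). Guadecitabine replicate 4 was the highest of the 11 arrays for 8 of the 18 members above background (Adamts1, Adamts4, Adamts9, Adamts12, Mmp14, Timp1, Timp2 and Timp3), and for 21.5% of 9109 genes above background, while replicate 2 was the highest for 0 of the 18 and 26.7% of the genes. The marker means of replicate 4 were the highest of the 11 arrays for 6 of 11 lists: fibroblasts (4.49, against 3.59 to 3.83 in the controls), endothelial cells (4.31, against 3.71 to 3.79), pericytes (5.80, against 4.28 to 4.86), melanocytes (11.69, against 11.25 to 11.60), macrophages (6.50, against 5.85 to 6.45) and keratinocytes (3.74, against 3.27 to 3.49). The part of these cells was not tested. Without replicate 4 Timp2 stood at -0.06.

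Adamts20 had 6.65, 5.11, 4.24, 7.37, 7.94 and 5.94 in guadecitabine tumours and 7.77, 7.63, 7.54, 7.62 and 5.59 in their control tumours (log2 change -1.02 ± 0.64 SE, adjusted p = 0.840). Both groups spread widely, and both lay mostly above the control tumours of the OTX015 experiment, which had 3.65 to 5.29. Adamts20 was named after its values were seen.

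**Figure D4:**
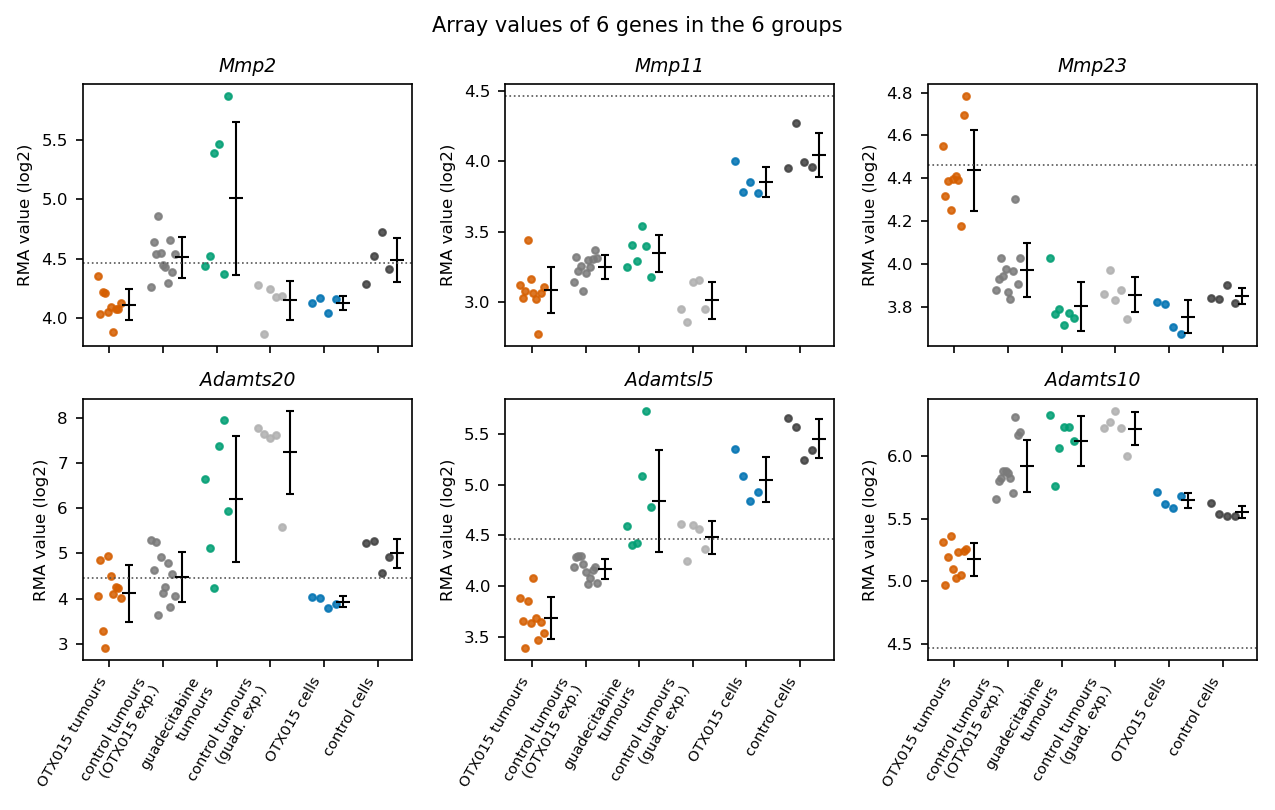
Deposited RMA values (y axis, log2) of 6 genes on each array (points) in the 6 groups (x axis), with the group mean ± SD beside them; the dotted line is the background. Mmp2 and Mmp11 are higher in all 6 guadecitabine tumours than in their 5 controls, Mmp23 is highest in OTX015 tumours, and Adamts20 reaches 7.94 in the guadecitabine experiment but no more than 5.29 in the other tumours and cells.

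The effects of the 2 drugs in tumours differed for 4 of 40 members (10.0%), against 3.54% of all genes, 1.39% higher and 2.15% lower (limma after quantile normalization over 32 tumour arrays). The effect of OTX015 exceeded that of guadecitabine for Mmp23, by 0.79 ± 0.11 SE (limma adjusted p = 4.74e-05). It was below that of guadecitabine for Mmp2, with -1.04 ± 0.23 SE (limma adjusted p = 0.00675), for Adamtsl5, with -0.61 ± 0.17 SE (limma adjusted p = 0.0437), and for Adamts12, with -0.51 ± 0.14 SE (limma adjusted p = 0.0386). By the deposited values the mean of Mmp23 was below background in every tumour group. That of Adamtsl5 was below it in both tumour groups of the OTX015 experiment. That of Mmp2 was below it in OTX015 tumours and in the controls of the guadecitabine experiment. Such values only bound a level. The drugs were tested in separate experiments with their own controls, so experiment and drug cannot be told apart. The fit shares 1 estimate of the spread over all its groups, and that spread was uneven for Mmp2. By the deposited values its SD was 0.64 in guadecitabine tumours and 0.16 in their controls. It was 0.13 in OTX015 tumours and 0.17 in the controls of that experiment. The p-value of Mmp2 thus rests partly on the narrower groups. The calls of Mmp23 and Mmp2 held when each array was left out in turn, while that of Adamtsl5 was lost in 22 of 32 such fits and that of Adamts12 in 10. Both were also lost after median centring (adjusted p = 0.109 for Adamtsl5 and 0.102 for Adamts12), without dim genes (0.0646 and 0.0637) and with the replicate number as a block (0.073 and 0.0968). After median centring 1 member was higher and 1 lower, and on the deposited values 1 higher and 16 lower, in place of 1 higher and 3 lower.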

How the data were processed

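RNA of 40 samples was hybridised to Affymetrix 3′ arrays, 1 array per sample, after biotin labelling. The deposited log2 values were made by the authors with RMA; the submitters' processing notes name Transcriptome Analysis Console. RMA corrects background, normalizes arrays to each other and summarises probes. The labels do not say which arrays shared an RMA run, and the number of arrays, not a read depth, limits the precision.

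Of 45141 probe sets, 28898 named 1 gene in GEO's platform annotation, 551 named several and 15692 none, and each of 17097 genes was read by 1 probe set, that of the highest mean level across all 40 arrays. Groups came from the sample labels. Comparisons were two-sided moderated tests of limma (version 3.58.1, under R 4.3.3; functions lmFit and eBayes), with Benjamini-Hochberg adjustment over all genes and calls at an adjusted p under 0.05. Deposited values were used for cells, for guadecitabine and for control tumours against control cells. Arrays were quantile-normalized over all probe sets for OTX015 in tumours and for both differences of effects, since the deposited values of OTX015 tumours lay lower. The fits were tested on simulated data.

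Members with values are the called ones above background in a group of the comparison, the Timp genes always and, where under 3 were called, the 3 with the smallest p; list genes are at most 4 called per list and comparison. The members and lists were chosen with earlier results of these data known. Alternatives covered scaling, dim genes, the choice of probe set, the variance model, array weights, a fit of all groups, a stricter threshold, the replicate number as a block and leaving out each array. Promoters are RefSeq's (GRCm38.p6).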

Additional observations from a re-analysis of the deposited data

Results flagged for a closer look

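The 22 genes given with values were checked in the 5 groups of 4 to 10 arrays, and of these 110 sets of values 11 held an array far from the others, and chance alone gives about 1 in 20. Guadecitabine tumour replicate 4 was the highest of its group for Timp1 (7.179, others 5.698 to 6.242), Timp2 (10.224, others 9.026 to 9.328) and Adamts9 (6.648, others 5.594 to 5.981). Guadecitabine tumour replicate 1 was the highest for Mmp23 (4.029, others 3.716 to 3.79). In the control tumours of that experiment, replicate 5 was the lowest for Adamts20 (5.592, others 7.545 to 7.774), replicate 1 the highest for Mmp14 (9.15, others 8.08 to 8.357) and replicate 2 the lowest for Mmp2 (3.866, others 4.18 to 4.278). In OTX015 tumours, after quantile normalization, replicate 1 was the lowest for Mmp12 (5.199, others 6.871 to 8.633), replicate 4 the highest for Mmp24 (6.732, others 5.609 to 6.192) and replicate 7 the highest for Adamts5 (3.633, others 3.254 to 3.45). In control cells replicate 2 was the highest for Mmp11 (4.276, others 3.954 to 3.996).

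The effect of OTX015 differed between tumours and cells by limma's test of the difference for 9 members: Mmp14 (1.07), Timp3 (0.89), Mmp23 (0.85), Mmp10 (0.52), Adamts1 (-1.08), Mmp16 (-0.94), Timp2 (-0.89), Adamts10 (-0.69) and Adamts4 (-0.51), each as tumours minus cells on the log2 scale. The effect of OTX015 minus that of guadecitabine in tumours differed from 0 for Mmp23 (0.79), Mmp2 (-1.04), Adamtsl5 (-0.61) and Adamts12 (-0.51).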

How the results depend on the processing

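Counts of called members moved most with the scaling of OTX015 tumours. On deposited values OTX015 tumours gave 27 calls in place of 7, the difference of effects between tumours and cells 16 in place of 9, and that between the drugs 17 in place of 4; median centring gave 14 and 2 for these differences, and array weights 15 for tumours against cells. OTX015 tumours gave 4 calls without dim genes, 11 with every probe set tested and 3 at an adjusted p under 0.01, and the difference between the drugs 2 without dim genes and 2 at that threshold. The fit of all 6 groups gave 7 calls in cells in place of 14 and 2 for guadecitabine in place of 0. With 1 array left out, counts ranged from 12 to 15 in cells, 5 to 8 in OTX015 tumours, 0 to 0 for guadecitabine, 17 to 22 between control tumours and control cells, 8 to 11 for tumours against cells and 2 to 4 between the drugs. Of the single-gene values with a change of direction, Adamts12 alone had passed the test, and the others had not: Timp1 in cells (0.11 after median centring, 0.053 after quantile normalization, -0.076 to 0.106 with 1 array left out), Timp3 in OTX015 tumours (-0.068 to 0.0038 with 1 array left out), Timp2 with guadecitabine (-0.058 to 0.182 with 1 array left out), and, between control tumours and control cells, Adamts12 (0.0011 after quantile normalization) and Timp2 (0.040 after quantile normalization, 0.017 with the guadecitabine experiment's controls). The cause was not tested. Without the arrays of low spread, an alternative chosen after seeing the data, counts were 22 between control tumours and control cells, 10 for tumours against cells and 4 between the drugs. Of the other single-gene values, 584 kept direction and side of the threshold, 44 lost it and 9 gained it; with 1 array left out these numbers were 1002, 55 and 3. Of the 40 members 19 lay below background in every group by the deposited values, and their values only bound a level.

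The labels do not say whether replicate numbers pair the samples. Same-numbered samples correlated at -0.154 to 0.145 in cells, -0.538 to 0.431 in OTX015 tumours and -0.441 to 0.039 in guadecitabine tumours. In cells replicates 1 and 3 correlated best with their own number and replicates 2 and 4 did not, and no treated tumour did. With so few samples this cannot decide whether they are paired. With the replicate number as a block, 13 members were called in cells, 6 in OTX015 tumours, 0 with guadecitabine, 17 between control tumours and control cells, 9 for tumours against cells and 2 between the drugs.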

Other observations

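The level of Adamts20 differed between the control tumours of the 2 experiments, a comparison made after its values were seen and with no test, since experiment and group cannot be told apart. It was 5.59 to 7.77 in the 5 control tumours of the guadecitabine experiment and 3.65 to 5.29 in the 11 control tumours of the OTX015 experiment. Control cells had 4.58 to 5.28.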
